A study of Mus musculus with 4 samples.

Results

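The genes described here make, activate or sense eicosanoids, the oxygenated lipid mediators cut from membrane arachidonic acid, together with 1 enzyme that breaks down platelet activating factor. The set holds 10 genes, and every probe set annotated to 1 of these symbols alone was taken, which gave 14 of the 45101 probe sets on the array, for 9 of the 10 genes. Ptgs1, the constitutive cyclooxygenase, had no such probe set in the annotation used and is not analysed here. The samples were whole tumour-bearing eyes of male and female C57BL/6 mice older than 7 weeks, and the labels do not give the sex behind each array. In both groups 10000 luciferase-expressing E.G7-OVA cells, T lymphoma cells of mouse origin carrying chicken ovalbumin as a model antigen, had been injected into the anterior chamber, and eyes were taken on day 15. The splenectomized mice (2 arrays) had lost the spleen before the injection, and the intact mice (2 arrays) had no surgery, so that the labels give no sham operation.

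Cytosolic phospholipase A2 frees arachidonic acid from membranes. Cyclooxygenases turn it into prostaglandin H2, from which terminal synthases such as Ptges make prostaglandin E2, a mediator of fever, pain and vessel tone. On the other branch, 5-lipoxygenase works with its activating protein at the nuclear membrane to make leukotriene A4, which Lta4h turns into leukotriene B4, an attractant of neutrophils and other leukocytes, and Ltc4s into leukotriene C4. Macrophages, neutrophils and mast cells are known sources of these lipids.

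The signals of cyclooxygenase 2, cytosolic phospholipase A2, the 5-lipoxygenase activating protein, the leukotriene B4 receptor and the platelet activating factor acetylhydrolase were higher in splenectomized than in intact mice, on each array of the one group against each of the other. The tested Ptges probe set was also higher in this way, but by a narrow gap (72.6 on the upper intact against 73.4 on the lower splenectomized array). Those of 5-lipoxygenase itself and of leukotriene A4 hydrolase were not higher in this way. Of the 14 probe sets, 10 were called Present on all 4 arrays, and these were the ones tested, so that none entered through 1 group alone. The values are scaled linear signals in which a higher number means more bound RNA. Because different probe sets bind with different strength, a signal is set here only against the same probe set on another array. Of the 10 tested probe sets, 8 had a higher mean log2 signal in splenectomized mice, where 53.2% of all 26285 tested probe sets did. The median log2 fold change was 0.74 for the 10 and 0.03 for all. The groups did not overlap and splenectomized mice were higher for 7 of the 10, where the background was 20.0%, and lower for 1, where it was 19.7%. In limma, 6 of the 10 were higher at an unadjusted p under 0.05, against 5.49% of all probe sets, and 0 were lower, against 2.58%. After Benjamini-Hochberg adjustment over all probe sets 0 of the 10 passed 0.05, and the share called over the whole array was 0% (smallest adjusted p of limma 0.173 among the 10 and 0.134 overall). The genes were chosen with earlier results of these data known, so these counts describe the set and do not test it. Without intact replicate 1 or 2 limma called 2 and 6 of the 10, and 329 and 3574 of all probe sets. Those fits take their spread from the splenectomized pair alone. Because the RNA came from whole eyes, more cells of a type and more RNA per cell cannot be told apart.

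**Figure D1:**
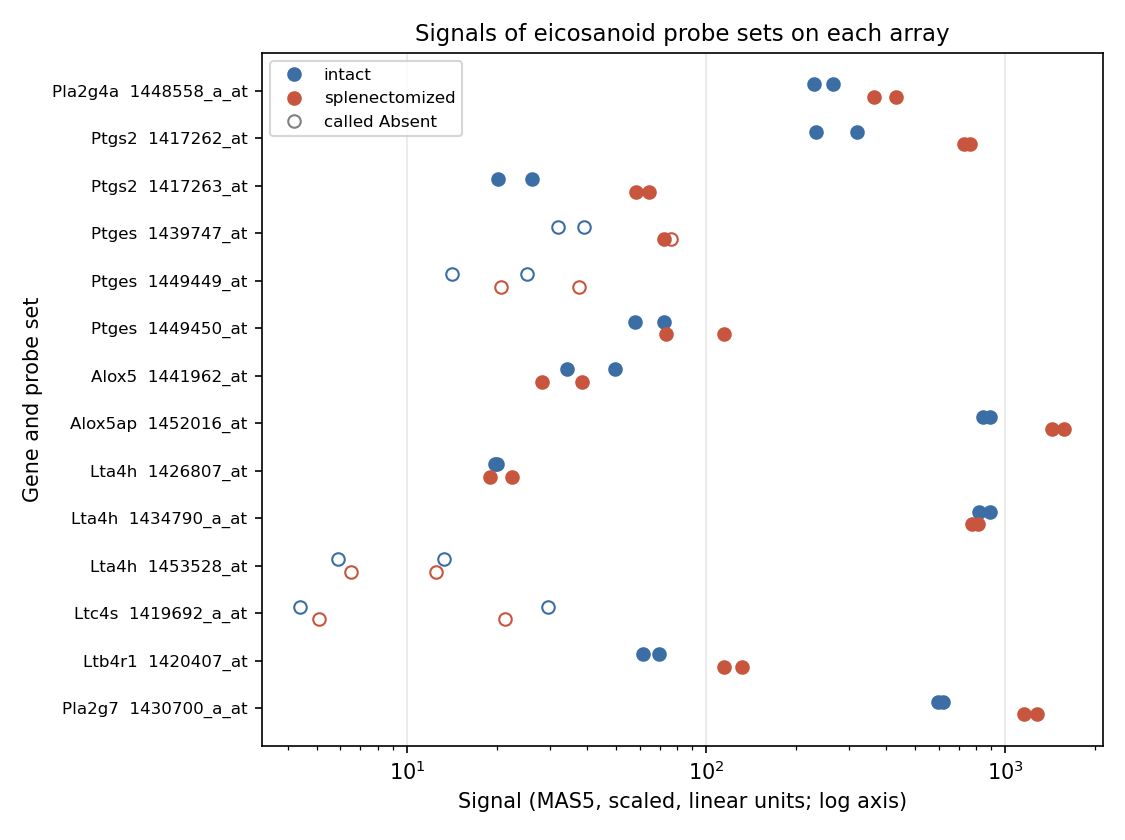
Signal of each of the 14 eicosanoid probe sets on each of the 4 arrays (horizontal log axis, scaled linear signal), with intact arrays in blue, splenectomized arrays in red and Absent calls as open circles. The intact and splenectomized points are apart for Ptgs2, Pla2g4a, Alox5ap, Ltb4r1 and Pla2g7 and lie close together for Lta4h.

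Ptgs2, the inducible cyclooxygenase of inflammation, was measured by 2 probe sets. For 1417262_at the signal was 321 and 233 on the intact arrays and 767 and 731 on the splenectomized arrays. Every splenectomized array was thus above every intact array, and the intact pair was the less even. The means were 277 ± 62.4 and 749 ± 25.2 (SD, n = 2 each). The log2 fold change was 1.45 (SE 0.20, 95% interval 0.96 to 1.94), a 2.74-fold higher signal, with an adjusted p of limma of 0.173. For 1417263_at, a much dimmer probe set, the signals were 26.2 and 20.2 in intact and 64.4 and 58.5 in splenectomized mice. Its log2 fold change was 1.42 (95% interval 0.68 to 2.16, adjusted p of limma 0.308), so both probe sets gave nearly the same difference although their signals were far apart. In both, intact replicate 1 was above intact replicate 2. These were the largest fold changes among the tested probe sets of the set.

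Pla2g4a, the cytosolic phospholipase A2 that supplies the cyclooxygenases with arachidonic acid, had signals of 230.3 and 266 in intact and 433 and 366 in splenectomized mice. The groups did not overlap, at means of 248 ± 25.4 and 399 ± 47.6 (SD, n = 2 each). The signal was 1.61-fold higher after splenectomy (log2 fold change 0.68, 95% interval 0.25 to 1.12, adjusted p of limma 0.43). Pla2g4a and Ptgs2 are neighbours on chromosome 1, with 0 protein-coding genes between them in the RefSeq table of GRCm38.p6.

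Ptges, the inducible microsomal synthase that makes prostaglandin E2, was detected by 1 of its 3 probe sets. For 1449450_at the signals were 57.8 and 72.6 in intact and 115 and 73.4 in splenectomized mice. The groups did not overlap, but the upper intact and the lower splenectomized array were almost level. The higher mean of the splenectomized group came from its replicate 1. The log2 fold change was 0.50 (95% interval -0.25 to 1.26, adjusted p of limma 0.706), and it was 0.18 without splenectomized replicate 1 and 0.82 without splenectomized replicate 2. The probe set 1439747_at had signals of 32.1 and 39 in intact and 76.6 and 72.7 in splenectomized mice but was called Present on splenectomized replicate 2 alone, and was not tested. The probe set 1449449_at was called Absent on all 4 arrays, at signals of 14.2 to 37.6. The interval of the tested probe set holds both no difference and a doubling, so 2 arrays a group did not settle whether Ptges differed.

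In the leukotriene branch, the activating protein was higher in splenectomized mice with no overlap, whereas the groups overlapped for the enzyme it serves. Alox5ap, the membrane protein that presents arachidonic acid to 5-lipoxygenase, had signals of 843.5 and 890 in intact and 1579 and 1439 in splenectomized mice. The arrays of each pair lay close together and the groups were well apart, at 867 ± 32.9 and 1509 ± 98.9 (SD, n = 2 each). The signal was 1.74-fold higher (log2 fold change 0.80, SE 0.14, 95% interval 0.46 to 1.14, adjusted p of limma 0.22). Alox5, the 5-lipoxygenase itself, was at 34.2 and 49.8 in intact and 38.5 and 28.4 in splenectomized mice. Its groups overlapped, and its mean was the lower one in splenectomized mice (log2 fold change -0.32, 95% interval -1.18 to 0.54, adjusted p of limma 0.802). The difference between the 2 genes in fold change was not tested, and Alox5 rests on 1 probe set of low signal.

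Lta4h, which makes leukotriene B4, was nearly level between the groups. Its bright probe set 1434790_a_at was at 894 and 820 in intact and 778.5 and 814 in splenectomized mice. The groups did not overlap, splenectomized mice were lower by a small amount (log2 fold change -0.10, adjusted p of limma 0.828), and the 95% interval ran from -0.45 to 0.24. The dim probe set 1426807_at had signals of 19 to 22.5 over the 4 arrays and a log2 fold change of 0.06 (95% interval -0.82 to 0.93), which turned to -0.11 under quantile normalization and to -0.07 without splenectomized replicate 1. The third, 1453528_at, was called Absent on all 4 arrays. Ltc4s, the leukotriene C4 synthase of mast cells and other myeloid cells, was also called Absent on all 4 arrays, at signals of 4.4 and 29.7 in intact and 21.3 and 5.1 in splenectomized mice, so no difference could be measured.

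Ltb4r1 encodes the high-affinity receptor of leukotriene B4 on leukocytes. Its signals were 69.6 and 61.5 in intact and 132 and 115 in splenectomized mice. The groups did not overlap, and the signal was 1.88-fold higher after splenectomy (log2 fold change 0.91, SE 0.21, 95% interval 0.38 to 1.45, adjusted p of limma 0.384). Pla2g7 encodes the secreted acetylhydrolase that inactivates platelet activating factor, a phospholipid mediator of platelets and leukocytes. Its signals were 599 and 623 in intact and 1277 and 1155 in splenectomized mice. The groups were apart by far more than either pair, at 611 ± 17 and 1216 ± 86.2 (SD, n = 2 each), a 1.99-fold difference (log2 fold change 0.99, SE 0.14, 95% interval 0.65 to 1.34, adjusted p of limma 0.175).

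**Figure D2:**
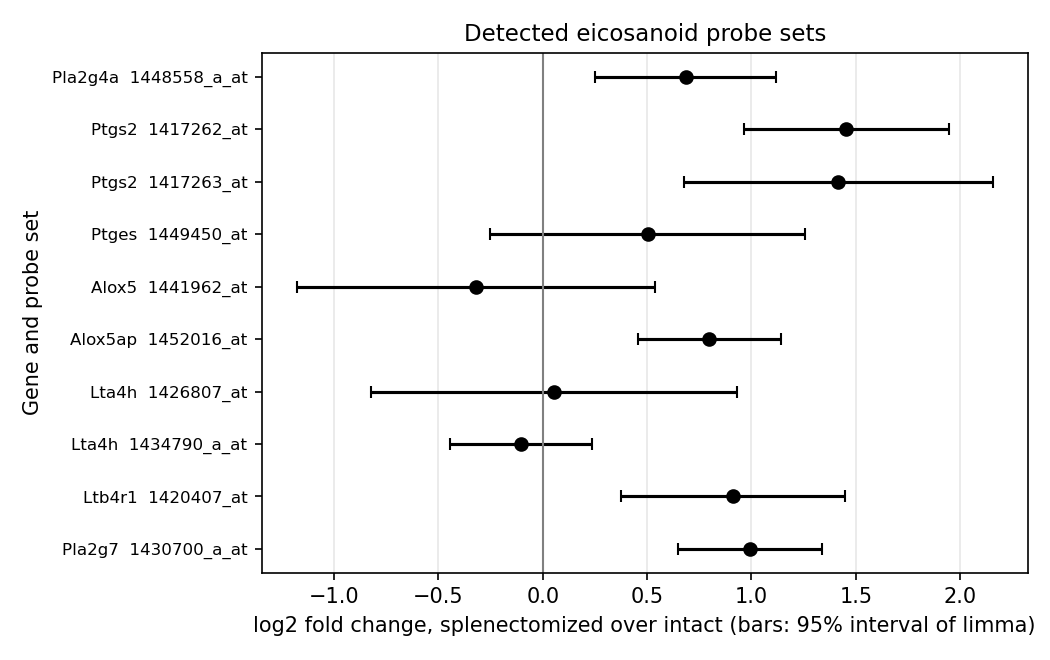
Log2 fold change of splenectomized over intact mice for the 10 tested eicosanoid probe sets, with bars for the 95% interval of limma before any adjustment. The intervals of Ptgs2, Pla2g4a, Alox5ap, Ltb4r1 and Pla2g7 lie above 0, and those of Ptges, Alox5 and Lta4h span it.

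Promoter sequences were matched by symbol in RefSeq on GRCm38.p6, where 9 of the 10 genes had an entry, from 250 bases before to 50 after an annotated start site. For Pla2g7 that start lies downstream of the first annotated base of the gene, which the window does not hold. Shown are Ptgs2, Pla2g7 and Ltb4r1, the genes with the largest fold changes that had an entry, and Lta4h, which was nearly level. They lie at chr1:150099781-150100080 (Ptgs2, plus strand), chr17:43568201-43568500 (Pla2g7, plus strand), chr14:55765712-55766011 (Ltb4r1, plus strand) and chr10:93453146-93453445 (Lta4h, plus strand). Capitals mark every match, on either strand, to TATAAA (the core box near many start sites), GGGCGG (the box bound by Sp1), CCAAT (bound by NF-Y), CACGTG (the E box), TGACG (a part of the cyclic AMP response element), TGANTCA (AP-1), GAGGAA (PU.1, a myeloid transcription factor), the interferon-stimulated response element and the NF-kappaB motif.
Ptgs2: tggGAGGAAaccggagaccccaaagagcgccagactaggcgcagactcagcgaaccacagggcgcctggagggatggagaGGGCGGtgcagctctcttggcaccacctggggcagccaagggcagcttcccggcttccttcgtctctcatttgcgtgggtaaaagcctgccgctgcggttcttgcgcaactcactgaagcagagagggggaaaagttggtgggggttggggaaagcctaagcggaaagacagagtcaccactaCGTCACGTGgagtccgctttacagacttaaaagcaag
Pla2g7: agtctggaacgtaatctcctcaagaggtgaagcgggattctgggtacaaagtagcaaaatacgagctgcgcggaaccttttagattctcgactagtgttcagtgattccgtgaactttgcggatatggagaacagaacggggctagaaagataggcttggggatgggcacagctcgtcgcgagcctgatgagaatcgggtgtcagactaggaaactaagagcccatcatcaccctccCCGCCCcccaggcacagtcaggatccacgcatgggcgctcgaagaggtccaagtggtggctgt
Ltb4r1: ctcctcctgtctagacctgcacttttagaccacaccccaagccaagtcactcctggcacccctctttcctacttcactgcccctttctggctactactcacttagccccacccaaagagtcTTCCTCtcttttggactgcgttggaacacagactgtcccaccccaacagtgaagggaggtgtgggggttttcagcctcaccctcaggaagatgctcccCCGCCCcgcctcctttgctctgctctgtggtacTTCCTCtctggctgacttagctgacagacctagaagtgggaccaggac
Lta4h: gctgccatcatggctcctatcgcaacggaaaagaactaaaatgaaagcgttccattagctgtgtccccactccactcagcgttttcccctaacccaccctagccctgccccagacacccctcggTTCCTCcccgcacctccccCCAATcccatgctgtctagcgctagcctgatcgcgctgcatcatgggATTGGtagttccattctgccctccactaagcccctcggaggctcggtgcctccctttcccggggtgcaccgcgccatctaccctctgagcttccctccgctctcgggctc

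In the Ptgs2 sequence the letters CGTCA and CACGTG share bases, at positions 14 and 17 after the start site. Of 32851 mouse promoters of the same length, 20.8% hold TGACG and 7.15% hold CACGTG on either strand. The Ltb4r1 sequence holds GAGGAA on the minus strand at positions -129 and 3, and Ptgs2 and Lta4h hold it at -247 and -126, where 28.3% of promoters hold at least 1. Ptgs2, Pla2g7 and Ltb4r1 each hold GGGCGG, as 35.7% of promoters do. Lta4h alone of the 4 holds CCAAT, at -107 and -60, which 37.4% of promoters hold. Matches of letters are descriptions of these windows and do not show that a factor was bound.

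The other genes of eicosanoid and platelet activating factor metabolism were read from a list of 73 genes, of which 66 had a probe set and 51 were detected (Present on at least 2 arrays), each by its detected probe set of highest mean log2 signal. In limma 11 of the 51 were higher in splenectomized mice at an unadjusted p under 0.05, where 7.07% of 13148 genes were, and 0 were lower, where 2.41% were. After adjustment 0 passed. The groups did not overlap for 23 higher genes (background 21.7%) and 7 lower genes (background 19.7%), and the median log2 fold change was 0.34, beside 0.05 for all genes. Unlike the 10 probe sets above, some of these genes were Present in 1 group more than in the other. The shares that follow are over all probe sets and not over 1 probe set per gene. With all arrays the share over probe sets was the smaller, at 5.49% against 7.07%. Without intact replicate 2 the count at an unadjusted p was 25, where 19.6% of all probe sets were higher at that level. Without splenectomized replicate 1 or 2 it was 5 and 7, where 1.77% and 2.34% were, beside 5.49% with all arrays.

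Some genes of leukotriene breakdown and of related enzymes were among the higher ones, and others were not. Cyp4f18, a cytochrome that oxidizes leukotriene B4 in mouse neutrophils (listed with the epoxide branch), had signals of 79.1 and 107 in intact and 223 and 229 in splenectomized mice. Its groups were far apart, and the log2 fold change was 1.29 (95% interval 0.75 to 1.84, adjusted p of limma 0.22). Ggt5, which trims leukotriene C4 to leukotriene D4, was at 67 and 61.1 against 128 and 97.3, with no overlap (log2 fold change 0.80, adjusted p of limma 0.51). It was called Absent on intact replicate 1. Mgst1, a microsomal glutathione transferase of the same protein family as Alox5ap, Ltc4s and Ptges, was 2.08-fold higher, at 868 and 1082 in intact and 2154 and 1878 in splenectomized mice (log2 fold change 1.05, adjusted p of limma 0.209). Alox15, the mouse 12/15-lipoxygenase, was at 81.2 and 87.6 against 136 and 155 (log2 fold change 0.78, adjusted p of limma 0.419). Of the 9 detected genes of lipoxygenases and leukotriene breakdown, 8 had the higher mean in splenectomized mice, where 53.2% of all tested probe sets did. Mgst1, Alox15 and Ggt5 were the 3 with an unadjusted p under 0.05 in limma, where 7.07% of genes were higher at that level. The groups overlapped for all the others, among them Mgst2 (log2 fold change -0.01), Mgst3 (0.18) and Dpep1 (0.45).

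Receptors gave a mixed picture. Fpr2, a formyl peptide receptor of phagocytes that also binds lipoxin A4, was at 605 and 350.4 in intact and 1213 and 1140.2 in splenectomized mice, and its intact arrays were uneven (log2 fold change 1.35, 95% interval 0.67 to 2.03, adjusted p of limma 0.289). All 5 detected receptors of leukotrienes and related lipids had the higher mean in splenectomized mice, where 53.2% of all tested probe sets did. Of the 5, Cysltr2 was Absent on both intact arrays (5.7 and 9 against 10.6 and 11.5). It was detected through the splenectomized group alone, so its direction is no support. The groups overlapped for Cysltr1 (log2 fold change 0.19). Among the prostaglandin receptors, Ptger2 was at 57.8 and 48 against 91.2 and 89.4, with no overlap (log2 fold change 0.78, adjusted p of limma 0.512). Ptger4, the other prostaglandin E2 receptor coupled to cyclic AMP, was at 1104 and 988.5 against 1098 and 1149, and its groups overlapped (log2 fold change 0.10, 95% interval -0.24 to 0.45, adjusted p of limma 0.83). Ptger1, Ptgdr and Ptgdr2 were not detected.

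At the start of the pathway, Plaat3, a phospholipase A known from fat cells, was at 374 and 574 in intact and 844 and 843 in splenectomized mice (log2 fold change 0.86, adjusted p of limma 0.455), and Anxa1, annexin A1, was at 3603 and 4264 against 5354 and 4424 (log2 fold change 0.31, adjusted p of limma 0.691). Of the 10 detected genes of this group, 5 had the higher and 5 the lower mean. Lpcat2, which makes platelet activating factor in activated macrophages, was at 321 and 283 against 486.5 and 461 (log2 fold change 0.65, 95% interval 0.27 to 1.03, adjusted p of limma 0.384). In this branch Pafah1b1, the regulatory subunit of an intracellular acetylhydrolase, was at 1260 and 1057 against 908 and 1011 (log2 fold change -0.27, adjusted p of limma 0.702). For each of the 6 detected genes of this branch the 2 groups did not overlap. Splenectomized mice were higher for 3 (background 21.7% of genes) and lower for 3 (background 19.7%). Lpcat2 alone of the 6 had an unadjusted p under 0.05 in limma.

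The terminal prostanoid synthases other than Ptges had 0 members at an unadjusted p under 0.05 among 6 detected. Ptgds, which makes prostaglandin D2 and is abundant in eye tissue, was at 889 and 3917 in intact and 3155 and 2092 in splenectomized mice. Its low value on intact replicate 1 stood beside low signals of retina and pigment genes on the same array, whose part in the result was not tested. Their summed signals were 1907, 7305, 6528 and 4428 for 3 retina genes and 513.5, 2209, 2121 and 1459 for 4 pigment genes, in the order intact replicates 1 and 2 and splenectomized replicates 1 and 2. Ptgr1, which inactivates leukotriene B4 and prostaglandins, was at 413 and 330.3 against 519 and 490 (log2 fold change 0.45, adjusted p of limma 0.593). Ephx1, the microsomal epoxide hydrolase, was at 550.4 and 612 against 641 and 751 (log2 fold change 0.26, adjusted p of limma 0.708).

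**Figure D3:**
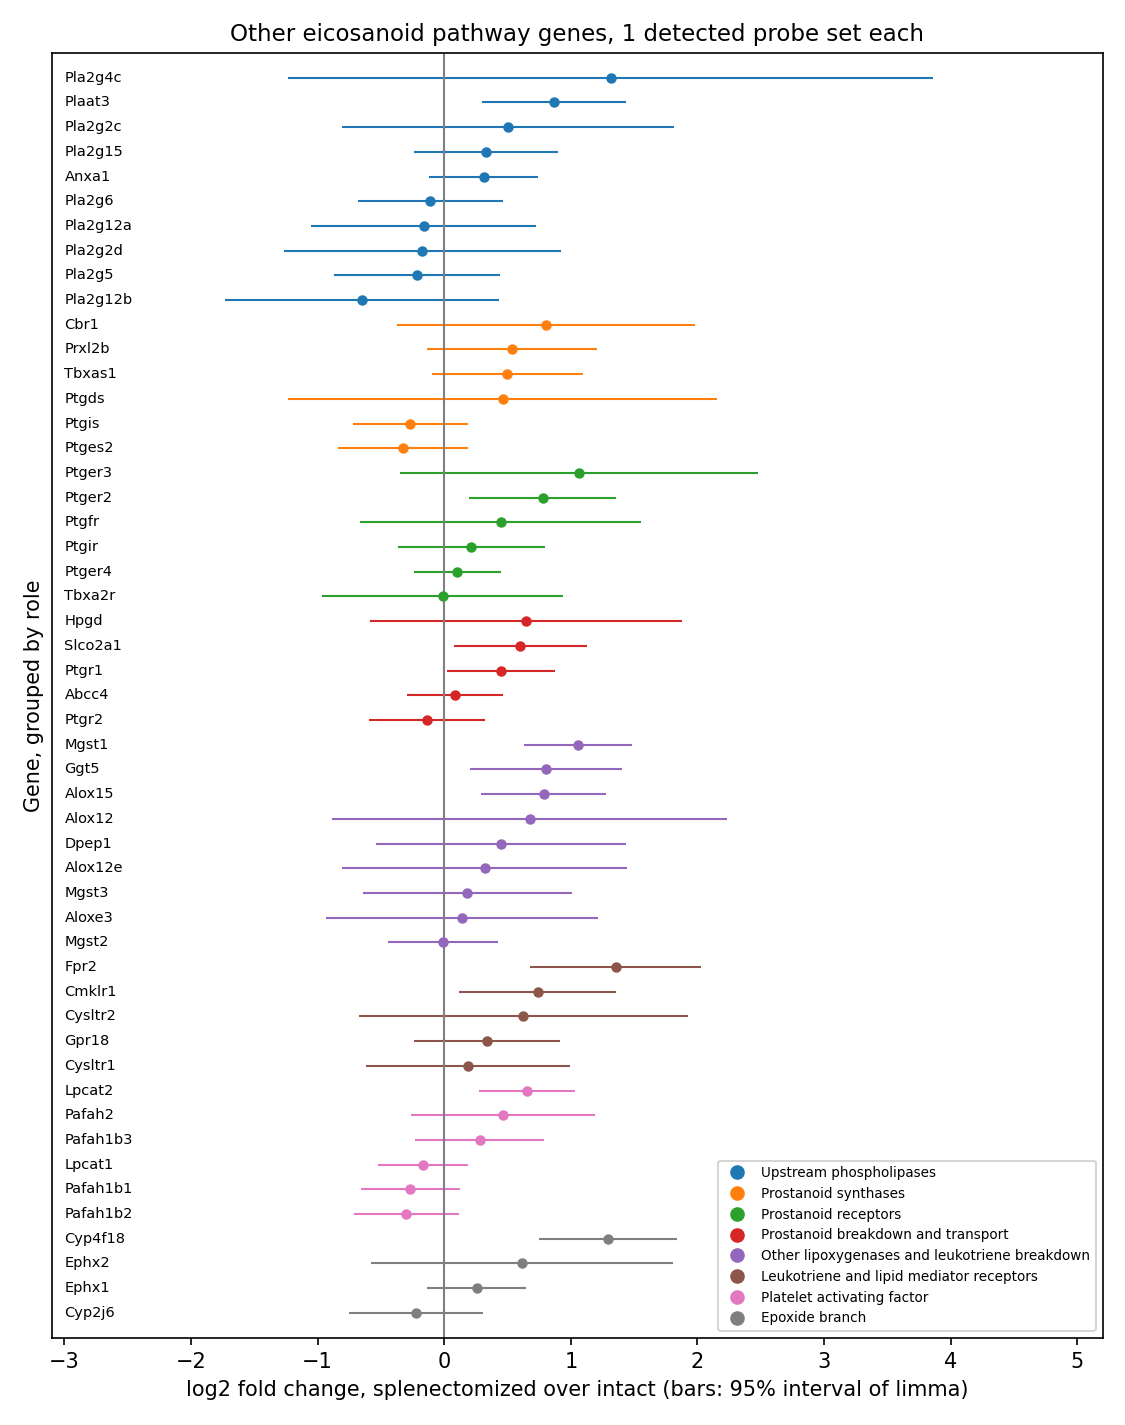
Log2 fold change of splenectomized over intact mice for the 51 detected other genes of the pathway, coloured by role, with bars for the 95% interval of limma before any adjustment. The intervals of 11 genes, Cyp4f18, Fpr2 and Mgst1 among them, lie above 0, and 0 lie wholly below it.

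Macrophage markers and most detected neutrophil markers had higher means in splenectomized mice, as 53.2% of all tested probe sets did. T cell markers had slightly lower means, 0 of them at an unadjusted p under 0.05 in limma. All 9 macrophage and monocyte markers were detected and had a higher mean in splenectomized mice, 7 of them at an unadjusted p under 0.05 (7.07% of all genes), with a median log2 fold change of 0.80 beside 0.05 for all genes. Their summed signals were 11158 and 9153 in intact and 16335 and 17295 in splenectomized mice. Single markers ranged from 0.36 (Itgam) to 1.10 (Cd14), which holds the values of Pla2g4a, Alox5ap, Ltb4r1 and Pla2g7, while both Ptgs2 probe sets were above all 9. Whether Ptgs2 differed from the markers was not tested. Of 9 neutrophil markers with a probe set, 6 were detected, of which 5 had a higher mean in splenectomized mice (3 at an unadjusted p under 0.05) and Ltf a lower one. Of the 5, Ngp was Absent on both intact arrays, and its groups overlapped (16.9 and 12.8 against 15.7 and 23.4). It was detected through the splenectomized group alone, so its direction is no support. The summed signals of the 6 were 7053 and 3839 in intact and 10089 and 9817 in splenectomized mice. Their median log2 fold change was 0.65, and the granule genes Camp, Elane and Mpo were not detected. Ptgs2, Fpr2 and the neutrophil sum were higher on intact replicate 1 than on intact replicate 2. So were the sums of the macrophage, platelet and T cell markers. The macrophage sum was so through Lyz2 (5763 and 4176 on intact replicates 1 and 2) and Cd14 (1052 and 567). Cd68 and Fcgr1 were slightly higher on replicate 1, and Csf1r, Adgre1, Mpeg1, Itgam and Mertk were level or lower. In the platelet sum Ppbp led (2697 and 397), and Itga2b was lower. Each T cell marker was higher on replicate 1, so this trait was not particular to neutrophil markers, of which Mmp8 was lower. The part of these markers in the eicosanoid differences was not tested.

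Of the 8 mast cell markers 5 were detected (Cpa3, Cma1, Kit, Fcer1a and Hdc), and Mcpt4, Tpsb2 and Ms4a2 were not. All 5 had the higher mean in splenectomized mice, where 53.2% of all tested probe sets did. Hdc alone had an unadjusted p under 0.05 in limma, where 7.07% of genes were higher at that level. The sums of the 5 were 1613 and 1960 in intact and 2114 and 2012 in splenectomized mice. Hdc, the histamine-forming enzyme of mast cells and other myeloid cells, was at 260 and 116 against 485 and 416, while Cpa3, a mast cell protease, was at 1250.4 and 1726 against 1513 and 1447. Of the 5 eosinophil markers Siglecf alone was detected, at 49 and 39.1 against 27.3 and 25.1. Of 4 platelet markers with a probe set 3 were detected, with sums of 4127 and 1317 in intact and 3080 and 2419 in splenectomized mice. The 5 T cell markers with a probe set, which the injected lymphoma shares, had sums of 11956 and 8407 against 8307 and 9581, and all 5 had the lower mean in splenectomized mice. Their median log2 fold change was -0.15, and 0 had an unadjusted p under 0.05 in limma. Without overlap between groups 2 were lower, where the background was 19.7% of genes. Lens genes (sums 7396, 18100, 19469 and 16531) and cornea genes (4821, 7455, 7379 and 6381) were called Present on each array, so that the samples held eye RNA. The median log2 fold change was 0.69 for the 4 lens genes and 0.76 for the 4 pigment genes, with intact replicate 1 low in both and the groups overlapping for each gene. The part of these eye genes in the eicosanoid differences was not tested.

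**Figure D4:**
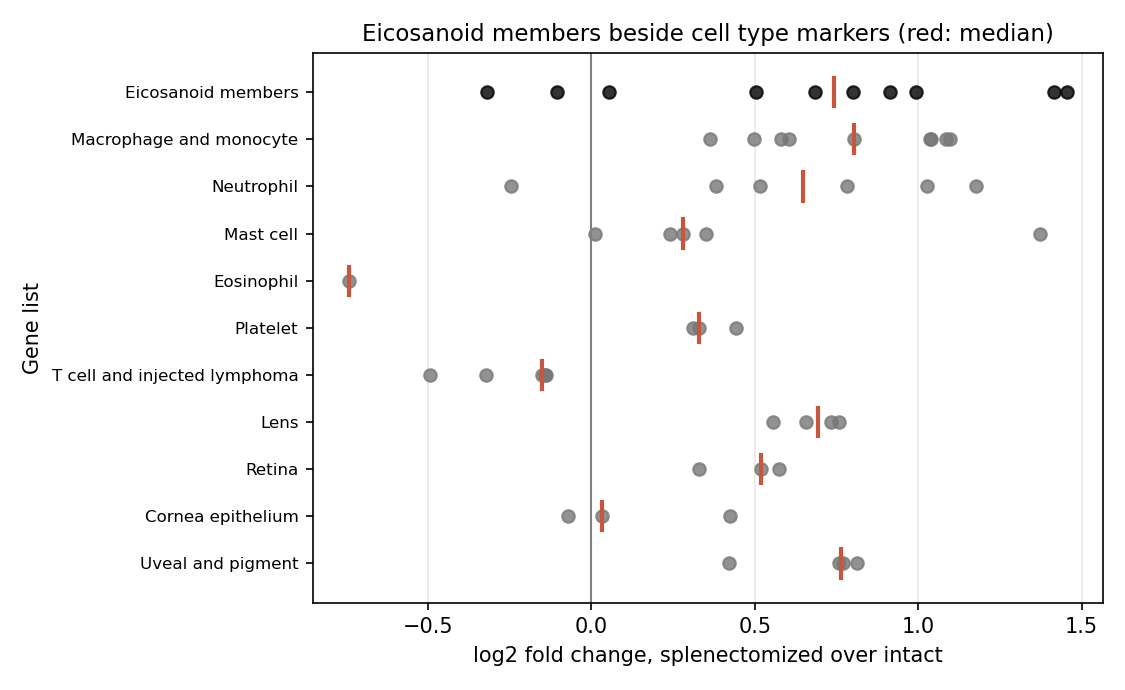
Log2 fold change of splenectomized over intact mice for the 10 tested eicosanoid probe sets (black) and for the detected markers of 10 cell types (grey), with a red bar at each median. The eicosanoid median of 0.74 lies among those of the macrophage (0.80), pigment (0.76), lens (0.69) and neutrophil (0.65) markers, and Ptgs2 lies above every macrophage marker.

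The genes closest to 2 of the members over the 4 arrays were found by the Euclidean distance of log2 signals, each centred on its own mean, among 12603 genes. For Ptgs2 these were Cyp4f39, a cytochrome gene (distance 0.04), the granule protease gene Gzma (0.09) and Plin2, a coat protein of lipid droplets (0.09). Gzma was at 325 and 235 in intact and 834 and 749 in splenectomized mice, and Plin2 at 579 and 438 against 1481 and 1304, so that both shared the higher intact replicate 1. Cyp4f39 had low signals of 7.2 to 22.8. For Alox5ap they were Mocos, which activates molybdenum enzymes (0.05), Tlr13 (0.07), an endosomal receptor of bacterial RNA in mice, and Sectm1b (0.07). Tlr13 was at 79.6 and 87.9 in intact and 155 and 145 in splenectomized mice. With 4 arrays such likeness is a description of these samples.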

How the data were processed

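Total RNA (500 ng per array) of 4 tumour-bearing eyes, 2 intact and 2 splenectomized, was labelled with a 3'-IVT Express kit, per the labels' protocols. The authors deposited an intensity per probe set on the linear scale with a Present or Absent call, for which the submitters' processing notes name GCOS 1.4 and MAS5. Their scaling target was not stated, but the mean signal after 2% trimming at each end was 150 on every array. Between 53.2% and 58.6% of probe sets were Present, and the number of arrays limits the precision.

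Signals were taken to log2 with values of 0 (7 in all) raised to 0.1. Probe sets Present on at least 2 of 4 arrays (26285) were fitted in limma 3.58.1 under R 4.3.3 (lmFit, eBayes with an intensity trend, no covariate), with two-sided p-values adjusted by the Benjamini-Hochberg method over all of them. Intervals are at 95%. Exact permutation of 2 against 2 arrays cannot go below p = 0.333. Names came from the platform annotation. Animals are not numbered in the labels, so p-values measure the spread between these samples. The members, the pathway and marker lists were chosen with earlier results of these data known. All members were named. Of the pathway list, the 8 genes of smallest unadjusted p and the highest signal of each role were named. Single markers were named after their values were seen. The fit was tested on simulated data. Alternatives were other scalings, a pseudocount of 6, other filters, no trend, a replicate block and 1 probe set per gene. Probe sets with suffixed IDs (_s_at, _x_at or _a_at) were also left out, as was each array in turn. Figures used matplotlib 3.10.9 and Python 3.11.15.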

Additional observations from a re-analysis of the deposited data

How the results depend on the processing

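The median log2 fold change of the tested eicosanoid probe sets was 0.74. It stayed between 0.65 and 0.85 with each array left out and was 0.62 with no detection filter, where all 14 probe sets enter. The number past an adjusted p of 0.05 was 0 under every alternative that kept all arrays, and 0 to 6 with an array left out. Such fits rest on 1 pair of replicates and on a lone array assumed to vary like the others. The number higher at an unadjusted p under 0.05 was 4 of 7 tested without the probe sets of suffixed IDs, 5 of 8 with 1 per gene and 7 of 14 with no filter. It was 6 of 10 under the other alternatives that kept all arrays, and fell without splenectomized replicate 1. With all arrays kept, the share of all probe sets higher at that level ran from 3.47% to 6.66%. The number higher with no overlap between groups was 5 of 7 without suffixed IDs, 6 of 8 with 1 per gene and 8 of 14 with no filter. It was 7 of 10 under the other alternatives that kept all arrays, and 7 or 8 of 10 with an array left out. The share of all probe sets was 20.0% in the main run and was not counted for the alternatives. A lone array separates from a pair more easily, so the counts with an array left out have no matching background. The dim Lta4h probe set 1426807_at reversed to -0.11 under quantile normalization and ran from -0.067 to 0.18 with each array left out, and the cause was not tested. No other tested probe set of the set reversed under an alternative run. Of the other pathway genes, those higher at an unadjusted p numbered 5 to 25 with an array left out, over the same shares, and those lower 0 to 3, with 1 lower without the intensity trend. Those past an adjusted p numbered 0 to 14 with an array left out, where 0 to 3574 of all probe sets passed. For probe sets lower at an unadjusted p, the share of all was 2.58% in the main run and was not counted for the alternatives. Under the alternatives the counts of lower pathway genes thus have no matching background. The replicate numbers pair no animals in the labels. Deviations from the group means correlated at -0.33 between arrays of the same number. With the replicate block the median was 0.74, 0 probe sets of the set passed (smallest adjusted p of limma 0.472), and 6 of the set and 8 other pathway genes were higher at an unadjusted p. Absent calls on 3 or 4 arrays kept Ltc4s, 2 Ptges probe sets and 1 of Lta4h out of the test.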
